A study of Oikopleura dioica with 2 samples.

Results

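Of the 57962 assembled components measured in the tunicate Oikopleura dioica, in unfertilized eggs and in larvae sampled 8 hours post-fertilization (hpf), 38 were very abundant in larvae and far lower, but above 0, in eggs. The 38 were chosen by both deposited values: at least 1000 FPKM in larvae, more than 0 FPKM in eggs, and a level at least 4-fold higher in larvae (a difference of 2 or more on the log2(FPKM + 1) scale). FPKM counts sequenced fragments for each kilobase of a transcript, relative to all fragments mapped in the library. A component is a group of transcripts assembled from the reads that the table treats as a gene. Because the egg and larval values selected the components, their levels and differences are given as a description with no test.

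Oikopleura dioica lives in the plankton, keeps its tail through adult life and feeds inside a filter-feeding house secreted by its epidermis. The unfertilized egg holds RNA laid down by the mother. In animal embryos generally, part of this RNA is later broken down while the genome of the embryo begins to be transcribed, so that a larva can hold RNA of both origins. The larva has tissues that the egg lacks, including tail muscle, notochord, nerve cells and epidermis.

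The egg group was RNA from unfertilized eggs of 46 females, and the larval group was RNA from 8 hpf larvae raised from 63 adult pairs, all from cohorts that went back to a single pair reared at 20 °C. Both were whole, untreated material of this laboratory line, with no allele or agent named in the labels. The labels list 1 sample for each stage, whereas the design text of the series states 2 biological replicates. Each stage has 1 value per component, read here as a mean that the authors took over replicates, so no spread between replicates can be computed and no difference below has a replicate check. The components carry no gene names, and none (0 of the 38) matched an identifier in RefSeq's gene table of assembly OKI2018_I68_1.0, which holds 17178 genes. No gene, cell type, function, sequence or position is therefore given for them, and whole larvae could not be checked against tissue markers. Fewer cells of a type and less RNA per cell cannot be told apart in RNA from whole animals.

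The 38 components were 0.0656% of all components and together held 11.1% of the larval FPKM, against 0.0518% of the egg FPKM. Across the whole table, 28.8% of the components met the 4-fold limit toward larvae, and among the 141 components of 1000 FPKM or more in larvae the share was 29.1%. Since the same difference chose the 38, nothing is read from these shares. Larval levels had a median of 1648 FPKM, with quartiles of 1273 and 2953 FPKM. Egg levels had a median of 0.88 FPKM, with quartiles of 0.499 and 2.30 FPKM. The median difference was 9.73 on the log2(FPKM + 1) scale, beside 0 over all components. The lower quartile over all components was also 0. Of the 57962 components, 14660 were above 0 in eggs and 32994 in larvae. Components at 0 in both stages thus entered the median of 0, which does not describe detected components alone. All 38 were higher in larvae under each scaling and pseudocount tried, with the lowest difference at 0.24. They were chosen for being higher, and adding the same pseudocount to both values cannot reverse their order. The smallest larva-to-egg ratio, 7.63, also exceeded the largest lowering of larval values by a scaling factor, 6.44-fold. This outcome is therefore not an independent check.

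In RNA recovered by oligo dT selection, egg levels were traces in most of the 38 but not in all. In eggs, 21 of them were below 1 FPKM and 33 were below 5 FPKM, and the other 5 lay between 15.6 and 366 FPKM. For comparison, the median egg level of the 14660 components above 0 in eggs was 6.08 FPKM. The 1000 highest of these 14660 included 2 of the 38, and nothing is read from this count. Over all 57962 components, most of them listed at 0 in eggs, 47852 were below 1 FPKM and 50348 below 5 FPKM. Low egg levels were thus not particular to the 38. The rule left out values of 0, and 10110 of the 14660 above 0 were at 1 FPKM or more, against 17 of the 38. The larval limit of the rule was met by 141 of the 57962 components, which bounds the larval ranks of the 38. Within these 141 the 38 were not uniformly at the top. The 38 included 3 of the 10 highest components and 15 of the 100 highest, and their ranks ran from 1 to 139.

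**Figure D1:**
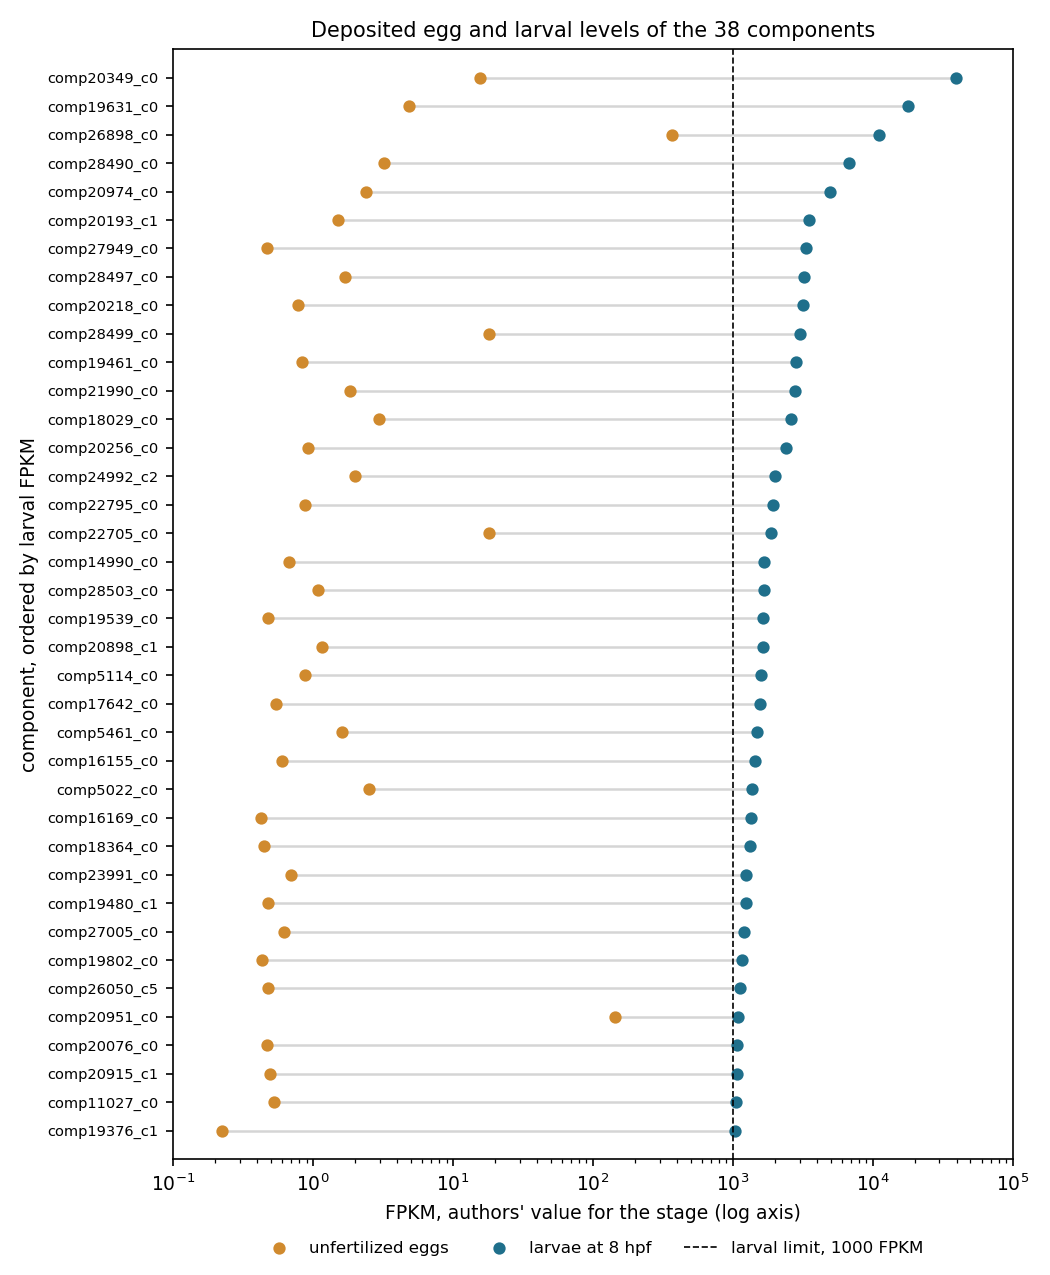
Deposited FPKM of each of the 38 components (log axis) in unfertilized eggs (orange) and in larvae at 8 hpf (blue), ordered by larval level, 1 value per stage with no error bar. Most egg points lie between 0.225 and 5 FPKM, whereas 5 components stand apart at 15.6 to 366 FPKM in eggs.

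A small number of components carried much of the larval signal of the 38. comp20349_c0, the highest of all larval components, was at 39446 FPKM in larvae and 15.6 FPKM in eggs. comp19631_c0 was at 17936 FPKM in larvae and 4.815 FPKM in eggs. comp26898_c0 was at 11131 FPKM in larvae and 366 FPKM in eggs. These 3 were the only ones of the 38 above 10000 FPKM in larvae, and they held 48.6% of the larval FPKM of the 38 and 5.39% of that of all components. The first of them alone held 28.0% of the larval FPKM of the 38.

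The next 6 components lay between 3158 and 6815 FPKM in larvae and between 0.47 and 3.235 FPKM in eggs. comp28490_c0 was at 6815 FPKM in larvae and 3.235 FPKM in eggs, and comp20974_c0 was at 4991 and 2.40 FPKM. comp20193_c1 (3481 FPKM in larvae) and comp28497_c0 (3203 FPKM) were at 1.51 and 1.68 FPKM in eggs. All 4 had larval levels close to 2000 times their egg levels, with linear ratios from 1906 to 2306. The other two in this range had lower egg values. comp27949_c0 was at 3320 FPKM in larvae and 0.47 FPKM in eggs, the highest ratio of the 38 at 7064. comp20218_c0 was at 3158 FPKM in larvae and 0.785 FPKM in eggs, a ratio of 4023.

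Of the 5 components between 2397 and 3000 FPKM in larvae, comp19461_c0 (2811 FPKM) and comp20256_c0 (2397 FPKM) were below 1 FPKM in eggs, at 0.835 and 0.92 FPKM. comp21990_c0 (2802 FPKM in larvae) and comp18029_c0 (2620 FPKM) were at 1.835 and 2.98 FPKM in eggs. The fifth, comp28499_c0, had the highest larval level of this range, 2999.64 FPKM, and a far higher egg level of 18.075 FPKM.

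The remaining 24 components lay below 2000 FPKM in larvae. The 9 between 1500 and 2000 FPKM had egg levels from 0.48 to 18.125 FPKM with a median of 0.88 FPKM, and 5 of them were below 1 FPKM in eggs. They included comp22795_c0, at 1948 FPKM in larvae and 0.88 FPKM in eggs, and comp24992_c2, at 1999 and 2.01 FPKM. The 15 between 1000 and 1500 FPKM had egg levels from 0.225 to 143 FPKM with a median of 0.49 FPKM, and 12 of them were below 1 FPKM in eggs. The lowest egg levels of the 38 lay in this range. comp19376_c1 had 0.225 FPKM in eggs against 1029.515 FPKM in larvae. comp16169_c0, comp19802_c0 and comp18364_c0 followed in eggs at 0.425, 0.43 and 0.45 FPKM, and were at 1348, 1167 and 1335 FPKM in larvae. comp20076_c0, like comp27949_c0, was at 0.47 FPKM in eggs, and it was at 1073 FPKM in larvae. A mean does not show whether both egg replicates gave a signal in such components.

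The linear ratio of larval to egg level was similar in most of the 38. The median ratio was 2201, with quartiles of 1529 and 2692, and 28 of the 38 lay within 2-fold of that median. In other terms the median egg level was 0.0454% of the larval level, with quartiles of 0.0371% and 0.0654%. Over all 38, the ratio spanned 926-fold, the larval levels 38.3-fold and the egg levels 1629-fold. In 34 components the ratio was 500 or more, from 543 to 7064. Within these 34 it spanned 13.0-fold and the egg levels 69.4-fold, a narrower spread that comes in part from the limit of 500, which was set on the ratio itself after the values were seen. Across these 34, log10 egg and log10 larval levels had a Pearson's r of 0.83 (Spearman's rho 0.72), and across all 38 the values were 0.53 and 0.62. Without the 2 components highest in larvae, r was 0.67 over 32 components and 0.51 over 36. The components share the same pair of columns, and the limits of 1000 FPKM and, for the 34, of a ratio of 500 bound the points, so these coefficients are descriptions only. A rescaling of the larval column by 1 factor multiplies every ratio alike and leaves their relative spread as it is. What sets the egg levels of these components was not tested.

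**Figure D2:**
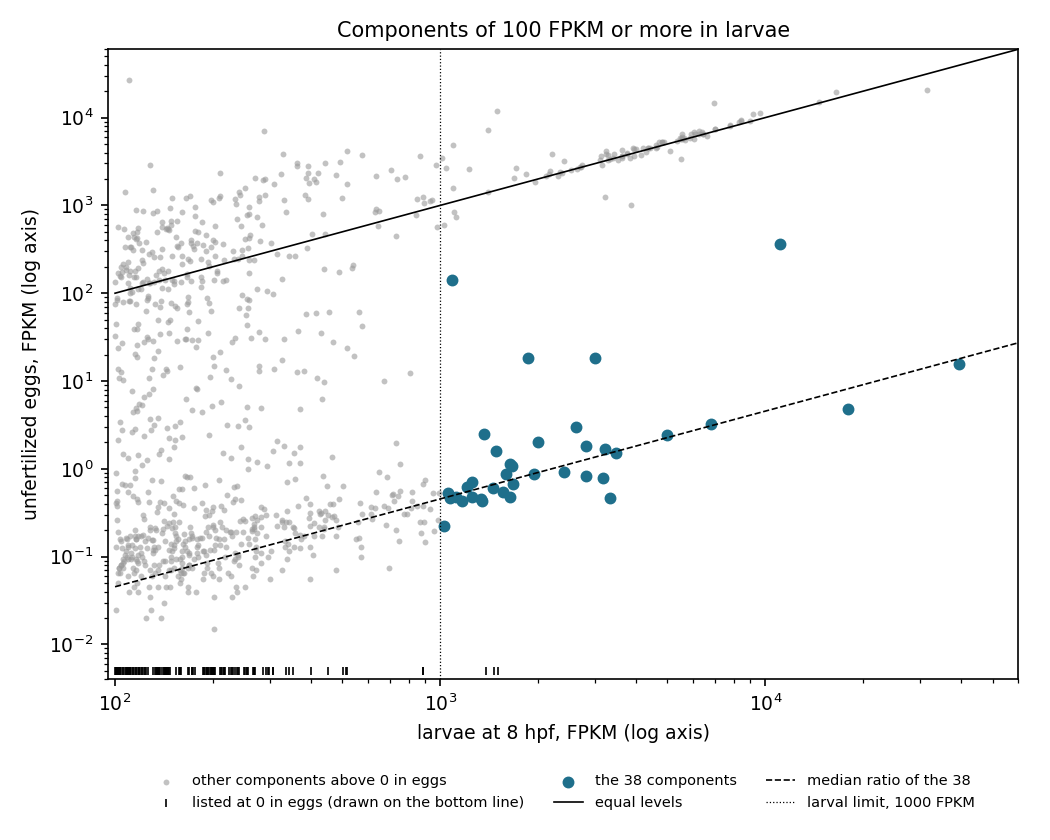
Egg FPKM against larval FPKM (both log axes) of every component of 100 FPKM or more in larvae, with the 38 in blue. To the right of the larval limit of 1000 FPKM, points lie near the line of equal levels or near the dashed line at a larva-to-egg ratio of 2201, with few between; the 3 components listed at 0 in eggs are on the bottom line.

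The 4 components with a ratio under 500 stood between these and the components that were about as abundant in both stages. comp20951_c0 had 143 FPKM in eggs against 1091 FPKM in larvae, a ratio of 7.63 and a difference of 2.92 on the log2(FPKM + 1) scale, the smallest of the 38. After upper-quartile scaling, which lowers every larval value 6.44-fold, its difference was 0.24 and no longer 4-fold. comp26898_c0, described above, had a ratio of 30.4 (4.92). comp22705_c0 had 18.125 FPKM in eggs against 1866 FPKM in larvae, a ratio of 103 (6.61). comp28499_c0 had almost the same egg level and a ratio of 166 (7.30). These 4 held 90.9% of the egg FPKM of the 38, and comp26898_c0 alone held 61.0%. The next smallest difference, 8.60, was that of comp5022_c0, with 2.51 FPKM in eggs against 1362 FPKM in larvae. At the other end, the largest differences were 11.59 in comp19631_c0, 11.21 in comp20349_c0, 11.14 in comp27949_c0, 10.79 in comp20218_c0 and 10.65 in comp28490_c0.

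The limits of the rule lay in different surroundings. Around the larval limit the levels ran on without a gap: comp19376_c1 and comp11027_c0 were just inside at 1029.515 and 1059 FPKM, and comp27653_c0 and comp15012_c0 just outside at 993 and 986 FPKM, with 0.535 and 0.26 FPKM in eggs. Around the 4-fold limit the components were sparse, though the nearest one outside lay close to the limit. comp20951_c0 (2.92) and comp26898_c0 (4.92) were just inside on the log2(FPKM + 1) scale, and comp25775_c0 and comp15025_c0 were just outside at 1.94 and 1.36, with 1005 and 1253 FPKM in eggs. At the egg limit, comp19376_c1 and comp16169_c0 were the lowest inside. Outside it were comp11003_c1, comp24353_c1 and comp14895_c0, at 1505, 1464 and 1382 FPKM in larvae and listed at 0 in eggs. The 7 components of the 38 that lay between 1300 and 1600 FPKM in larvae, around the levels of these 3, had egg levels from 0.425 to 2.51 FPKM.

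The other 100 components of 1000 FPKM or more in larvae lay between 606 and 20670 FPKM in eggs, and their larva-to-egg ratios ran from 0.127 to 3.84 with a median of 0.956. The median larval level of these 100 was 3953 FPKM, against 1648 FPKM in the 38. Together the 100 held 37.0% of the larval FPKM, against 11.1% in the 38. The rule itself sets these groups apart in egg level, so nothing is read from their separation.

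Below the larval limit the same kind of components had more varied ratios. Of those at least 4-fold higher in larvae and above 0 in eggs, 280 lay between 100 and 200 FPKM in larvae and had a median ratio of 759 (quartiles 113 and 1496). For the 186 between 200 and 500 FPKM the median was 1240 (238 and 2119), and for the 52 between 500 and 1000 FPKM it was 1856 (1299 and 3073). The 24 of the 38 between 1000 and 2000 FPKM had a median of 2201 (1507 and 2649), and the 14 of 2000 FPKM or more one of 2206 (1622 and 3176). The upper quartile was thus 13.2, 8.90, 2.36, 1.76 and 1.96 times the lower one from the lowest to the highest class. Ratios under 500 made up 39.3%, 31.2% and 13.5% of the 3 lower classes, and 8.33% and 14.3% of the pair that holds the 38. Components listed at 0 in eggs have no ratio and made up 27.1%, 17.3%, 8.77%, 11.1% and 0% of the 4-fold higher components of the 5 classes. The medians over those above 0 thus leave out more components in the low classes.

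**Figure D3:**
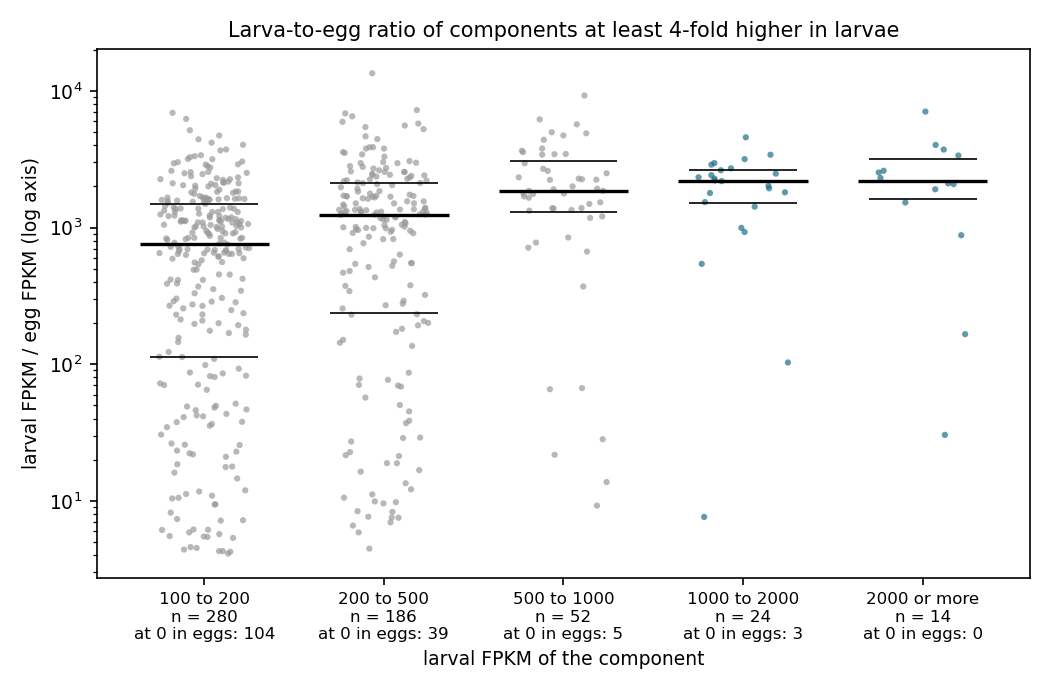
Ratio of larval to egg FPKM (log axis) for components past the 4-fold limit toward larvae and above 0 in eggs, by larval level, with 1 point per component, the 38 in blue, a thick line at the median and thin lines at the quartiles. The medians run from 759 in the lowest class to 2206 in the highest, and the quartiles lie closer together in the classes of 500 FPKM or more.

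The opposite direction is given beside these ratios. At the deposited scaling, the 66 components that reached 1000 FPKM in eggs and were at least 4-fold lower in larvae had a median egg-to-larva ratio of 7.80, with quartiles of 5.79 and 58.3. Of these, 53 (80.3%) had a ratio under 100 and 3 reached 500, against 34 of the 38. Their larval levels were 2.10 FPKM or more, with a median of 210 FPKM, so none (0) of them was below 1 FPKM in larvae, whereas 21 of the 38 were below 1 FPKM in eggs. These counts depend on scaling. Scaling by 1 factor moves the ratios of both sets in opposite directions, whereas quantile normalization lowered both medians. After upper-quartile scaling the medians were 342 in the 38 and 50.3 in the 66, with 6 of the 38 and 15 of the 66 at 500 or more. After quantile normalization they were 252 and 6.49, with 5 and 7 at 500 or more. The other scalings kept the medians further apart. Trimmed mean scaling gave 3953 and 4.34, with 34 and 1 at 500 or more. Rescaling each column to a sum of 1000000 gave 2007 and 8.56, with 33 and 5. The trimmed mean over components above 0 in both stages gave 1625 and 10.6, with 33 and 6. The difference between the sets, which were chosen by mirrored rules, was not tested.

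The number of assembled transcripts was not used by the rule. Of the 38 components, 23 (60.5%) held 1 transcript, 6 held 2 and 9 (23.7%) held 3 or more. Single transcripts made up 83.9% of all components, 89.0% of the other 100 of 1000 FPKM or more in larvae, and 55.2% of the 518 components of 100 to 1000 FPKM that met the other limits of the rule. The share in the 38 lay nearest to that of the last group, though the differences were not tested and the number of transcripts also depends on the assembly, whose method the labels do not give. The 9 with 3 or more transcripts held 48.2% of the larval FPKM of the 38, and 39446 FPKM of that came from comp20349_c0, with 5 transcripts. comp24992_c2 held 9 transcripts, comp26050_c5 held 7 and comp26898_c0 held 6. comp19461_c0 and comp22795_c0 held 4 each, and comp20974_c0, comp27949_c0 and comp27005_c0 held 3 each. comp26050_c5 and comp27005_c0 were at 1120 and 1210 FPKM in larvae and at 0.48 and 0.625 FPKM in eggs. The larva-to-egg ratio had much the same median in components with 1 transcript (2188), with 2 (2066) and with 3 or more (2214).

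A component number followed by different subcomponent indices (c0, c1 and so on) marks rows that the assembly placed together, which can be pieces, alleles or near copies of a gene. No number (0) held more than 1 of the 38. For 15 of the 38 (39.5%) the table held other rows of the same number, against 20.1% of all components and 31.0% of the other 100 abundant ones. Of these 30 other rows, 10 were listed at 0 in both stages, 16 were at 0 in eggs and above 0 in larvae, and 4 were above 0 in eggs. Most were low: 13 of the 16 lay between 0.965 and 14.2 FPKM in larvae.

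In 4 rows the larval level reached 100 FPKM. comp20193_c0 was at 885 FPKM in larvae and listed at 0 in eggs, 25.4% of the larval level of comp20193_c1. comp24992_c5 was at 352 FPKM in larvae and 0.215 FPKM in eggs, a ratio of 1637 beside 995 for comp24992_c2. comp24992_c0 was at 255 FPKM and comp19631_c1 at 158 FPKM in larvae, and both were listed at 0 in eggs. These 4 were higher in larvae, like the abundant row of their number.

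In 2 rows the deposited level was lower in larvae. comp26898_c1 had 65.2 FPKM in eggs against 18.0 FPKM in larvae, while comp26898_c0 was at 366 and 11131 FPKM. comp28497_c1 had 106 FPKM in eggs against 71.5 FPKM in larvae, while comp28497_c0 was at 1.68 and 3203 FPKM. After trimmed mean scaling the larval level of comp28497_c1 was 128 FPKM, above its egg level, and that of comp26898_c1 was still below, at 32.3 FPKM. The remaining row above 0 in eggs, comp26898_c5, had 7.465 FPKM in eggs against 9.70 FPKM in larvae. How reads shared by rows of the same number were divided cannot be seen in the table, so the values of such rows are uncertain.

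**Figure D4:**
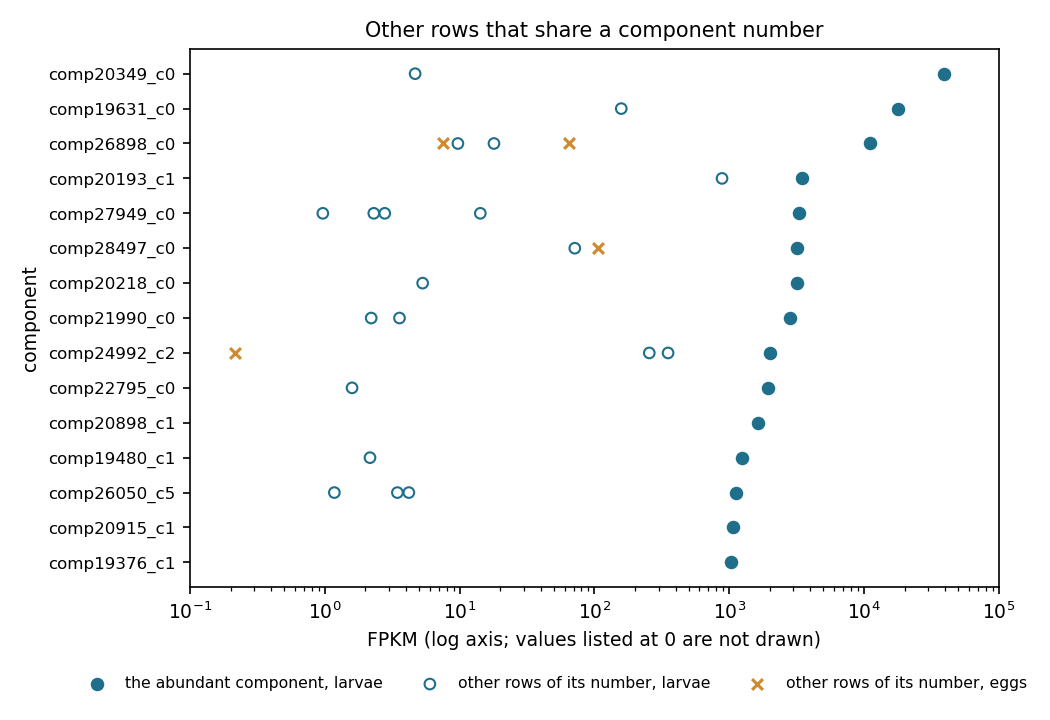
FPKM (log axis) of the 15 components that share a component number with other rows: filled points give the larval level of the abundant component, open points the larval levels of the other rows, and crosses their egg levels, with values listed at 0 left out. The other rows lie below the abundant one in larvae, at 885 FPKM or less.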

How the data were processed

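RNA of 2 stages was measured by strand-specific paired-end sequencing after oligo dT selection, with an insert of 200 bp and reads of 90 bp, per the labels' protocols. The deposited FPKM values were made by the authors with RSEM, per the submitters' processing notes; neither its version nor the assembler, filters or genome build is given in the sources used here. The values are linear although the file is named for log2, and all of them above 0 end in 0 or 5 at the third decimal, as a mean of 2 values with 2 decimals would, so each column was read as a mean over replicates, with no SD, n or test. The depth is unknown, so counting intervals are not given. No column of another sample was present (0). The columns summed to 1158185 FPKM in eggs and 1269958 FPKM in larvae.

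Each difference is the larval minus the egg value of log2(FPKM + 1), which understates that of low components; ratios are of the deposited values with no pseudocount. The components, like all groupings here, were chosen with earlier results of these data known, and the ratio limit of 500 and the larval classes after the values were seen. Named by rule were the 5 highest and the extreme components of each measure, those with 3 or more transcripts and those next to each limit; others were named after their values were seen. Trimmed mean scaling used components of 1 FPKM or more in both stages (30% of log ratios and 5% of abundances trimmed at each end). Upper-quartile scaling made the upper quartiles of the stages equal, over components above 0 in either stage. Only 14660 components were above 0 in eggs, against 32994 in larvae. Many values of 0 thus enter the egg quartile, and its factor depends on how many components were detected. Functions were tested on simulated data. Computation was done in Python 3.11.15 with scipy 1.17.1, pandas 2.3.3 and numpy 2.4.6, and figures were drawn with matplotlib 3.10.9.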

Additional observations from a re-analysis of the deposited data

How the results depend on the processing

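No paired analysis was possible because the table gives 1 value per stage, and leaving out a replicate was likewise not possible. A result was taken as moved when it changed by more than 1.5 times. For the median difference this limit applied to the linear fold that the log2 value stands for. The share with 1 transcript was taken as moved when it left its exact 95% binomial interval. Of 37 alternatives, 21 moved nothing. Only the median difference has a direction, which 0 of its 11 alternatives changed, in components chosen for being higher in larvae. The number of components, 38, became 90 and 14 at larval limits of 500 and 2000 FPKM, 88 after trimmed mean scaling, which raises larval values 1.80-fold, and 4 after upper-quartile scaling, because fewer or more components then reach the larval limit. It lay between 26 and 52 under the other alternatives. The trimmed mean over all components above 0 in both stages, chosen after seeing the data, instead lowers larval values 1.35-fold and left 26. The median difference, 9.73, was 10.57 with trimmed mean scaling, 7.04 with upper-quartile scaling and 7.79 with quantile normalization, which moved the median of all components to -0.81. A pseudocount of 0.1 FPKM gave 10.94 and one of 10 FPKM gave 7.20. It was 11.10 with no pseudocount (chosen after seeing the data) and 10.48 at the larval limit of 2000 FPKM. At larval limits of 500 and 2000 FPKM the median egg level was 0.53 and 2.12 FPKM, and 65 and 4 components were below 1 FPKM in eggs. At 2000 FPKM the share with 1 transcript was 42.9%. The step of 0.005 FPKM and the unknown depth limit the lowest egg values and the ratios made from them.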
